A study of Mus musculus with 10 samples.

Results

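Small heat shock proteins are chaperones without ATPase activity that share an alpha-crystallin domain and hold unfolding proteins until the ATP-driven HSP70 machinery takes them over. In striated muscle they bind desmin, actin, titin and filamin C at the Z-disc, and several are phosphorylated by stress-activated or cAMP-dependent kinases. Mutations in CRYAB and HSPB8 cause myopathies, and cardiac muscle is among the tissues richest in these proteins.

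The genes described are 7 of the 10 small heat shock protein genes considered, namely Hspb1, Hspb2, Hspb3, Hspb6, Hspb7, Hspb8 and Cryab, out of 56748 genes in the count tables. They were chosen by symbol, with earlier results of these data known. The Ensembl identifiers of the tables were matched to symbols with the GENCODE annotation. RNA came from the whole hearts, atria and ventricles together, of 5 wild-type male C57BL/6 mice labelled Exercise (training) and 5 labelled Control (sedentary), 1 library per heart. The training mice ran on a treadmill at 15 m/min for 120 min a day on 5 days a week for 8 weeks, after at least 2 weeks of rest and 1 week of acclimatization, and the sedentary mice were their controls. The mice were bought at 8 weeks of age and carried no transgene according to the labels. Reads that mapped to 1 place were counted per gene on the reverse strand, which is the strand of the transcript in these libraries. Counts are given as CPM, which are relative to the TMM-corrected library total.

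Of the other 3 genes of the family, Cryaa, the alpha-A crystallin of the lens, had 0 counts in all 10 hearts, Hspb9 had 2 counts in sedentary heart 2 and Odf1 had 1 count in sedentary heart 4. Hspb9 and Odf1 were at 0 in the remaining hearts. A count of 0 allowed up to 3 counts, or between 0.0761 and 0.102 CPM depending on the library, so these genes were not detectable beyond that level. Of 5 lens markers, Cryaa, Crygd, Crybb2 and Mip were at 0 and Bfsp1 was at 0.388 ± 0.183 CPM in training and 0.403 ± 0.101 CPM in sedentary hearts (SD, n = 5), while the 10 cardiomyocyte markers summed to between 62582 and 75207 CPM.

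The libraries held between 29461697 and 39431030 reverse-strand counts on genes, with a mean of 33369300 in training and 37425700 in sedentary hearts (exact two-sided permutation test, p = 0.0238, n = 5 and 5). Summed markers of cardiomyocytes lay between 62582 and 68151 CPM in training and between 66168 and 75207 CPM in sedentary hearts, with 2 of 10 called lower by edgeR (Actc1 and Tnnc1). Atrial markers lay between 5389.9 and 8009.5 CPM in training and between 3016 and 7168 CPM in sedentary hearts, with 3 of 10 higher (Sln, Kcnj3 and Dkk3) and 1 lower (Kcna5). Among markers of other cells, 2 of 10 smooth muscle and pericyte genes rose and 1 fell, 3 of 10 fibroblast genes rose and 2 of 10 endothelial genes fell. Of 6 tested skeletal muscle genes 2 fell in edgeR, Acta1 and Ckm, and DESeq2 called 1 lower. Acta1 and Ckm were at 309.7 and 1637 CPM in training hearts, while Tnnt3, Tnni2, Mylpf and Actn3 had group means of at most 1.46 CPM. The falls of Acta1 and Ckm were therefore not read as a change in skeletal muscle content. The skeletal muscle list's Myh1, Myh2, Myh4 and Myod1 had too few counts to be tested. No tested adipocyte, macrophage or erythroid gene was called by edgeR or DESeq2, with 1 erythroid gene lower at an unadjusted p under 0.05. Over all genes tested, edgeR called 4.26% lower and 2.75% higher. In whole hearts, fewer cells of a type and less RNA per cell cannot be told apart.

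The 7 genes lie on 5 chromosomes of the GRCm39 build. Cryab (chr9:50651859-50668567, plus strand) and Hspb2 (chr9:50662378-50663858, minus strand) stand head to head, with 328 bases between the starts of their canonical transcripts. Hspb1 (chr5:135916760-135918417, plus strand) and Hspb8 (chr5:116546409-116561084, minus strand) share chromosome 5 but are not neighbours. Hspb6 lies at chr7:30251603-30256218 (plus strand), Hspb7 at chr4:141148090-141152625 (plus strand) and the single-exon gene Hspb3 at chr13:113799432-113800212 (minus strand).

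The 250 bases upstream of the canonical transcript start are shown for 4 of these genes. For Cryab and Hspb6 this window lies inside the annotated gene, which begins further upstream, and other transcript starts were not searched. Hspb6 and Hspb7 are the members called in the comparison. Cryab and Hspb1 hold short letter matches to the heat shock element, the repeat bound by heat shock factors. Hspb3, not shown, holds such a match too. The sequences were read 5′ to 3′ from the GRCm39 genome, on the plus strand, up to the base before the start of the canonical GENCODE transcript. Capitals mark matches to GAANNTTC or TTCNNGAA, both of which read the same on either strand. The windows are chr9:50663937-50664186 for Cryab, chr5:135916510-135916759 for Hspb1, chr7:30252112-30252361 for Hspb6 and chr4:141147840-141148089 for Hspb7.
Cryab: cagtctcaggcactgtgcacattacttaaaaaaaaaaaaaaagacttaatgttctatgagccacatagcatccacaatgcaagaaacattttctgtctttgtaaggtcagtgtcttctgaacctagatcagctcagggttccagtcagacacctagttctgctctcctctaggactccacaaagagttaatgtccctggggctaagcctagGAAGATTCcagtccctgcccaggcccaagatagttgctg
Hspb1: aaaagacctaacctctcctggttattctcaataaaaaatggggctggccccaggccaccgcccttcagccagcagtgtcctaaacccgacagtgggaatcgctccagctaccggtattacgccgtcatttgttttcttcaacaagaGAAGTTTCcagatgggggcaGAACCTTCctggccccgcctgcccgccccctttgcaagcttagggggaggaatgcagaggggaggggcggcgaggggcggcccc
Hspb6: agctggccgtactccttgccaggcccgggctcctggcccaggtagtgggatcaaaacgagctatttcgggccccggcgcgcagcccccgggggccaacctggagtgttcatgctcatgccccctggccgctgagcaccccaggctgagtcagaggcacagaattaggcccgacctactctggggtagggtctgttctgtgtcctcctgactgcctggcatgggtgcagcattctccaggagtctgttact
Hspb7: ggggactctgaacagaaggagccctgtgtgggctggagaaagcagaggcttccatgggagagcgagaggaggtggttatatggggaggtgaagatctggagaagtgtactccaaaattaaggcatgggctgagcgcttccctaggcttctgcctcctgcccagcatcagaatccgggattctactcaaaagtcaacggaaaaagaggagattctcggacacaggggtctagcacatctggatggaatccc

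Cryab held 1 such match, GAAGATTC at bases -39 to -32 from the transcript start, and Hspb1 held 2, GAAGTTTC at -104 to -97 and GAACCTTC at -84 to -77. Hspb3 held GAATTTTC at -224 to -217, and the windows of Hspb2, Hspb6, Hspb7 and Hspb8 held none. In all, 3 of the 7 members had the motif, against 12.3% of 21770 protein-coding promoters. The longer heat shock element of 3 alternating units was in 0.349% of promoters and in none of the 7. The E-box CACGTG was in 6.26% of promoters and in no member, and TATAAA was in 11.9% of promoters and, among the members, only in Hspb3. The windows of Cryab and Hspb2 share 172 bases. These are matches of letters in short windows and do not show binding.

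By level per transcript length, taken from the TPM values (transcripts scaled by length and library) of the deposited RSEM files, the family spanned a wide range. Cryab, the alpha-B crystallin that binds desmin and titin, was at 1953 ± 134 TPM in sedentary hearts (SD, n = 5) and ranked 38 among all genes. Hspb7, which binds filamin C, followed at 967 ± 43.2 TPM, and Hspb6, the PKA substrate also called HSP20, at 722 ± 32.7 TPM. Hspb1 (HSP27, an actin-binding chaperone) was at 335 ± 38.1 TPM and Hspb8, the partner of the cochaperone BAG3, at 257 ± 11.3 TPM. Hspb2, also known as the myotonic dystrophy kinase binding protein, was at 76.2 ± 3.20 TPM and its partner Hspb3 at 8.12 ± 0.463 TPM, rank 6509.

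The order of the 7 levels was the same in training hearts, with Cryab at 1924 ± 236, Hspb7 at 883 ± 85.3 and Hspb6 at 574 ± 57.0 TPM. The ranges of neighbours in this order did not overlap over the hearts, apart from those of Hspb1 and Hspb8 in training hearts (242.8 to 400.1 and 225.7 to 278.5 TPM). The place of Hspb1 also depended on the counting. RSEM, which shares reads among the genes they match alike, gave Hspb1 between 1.73 and 1.80 times its reverse-strand unique count, against between 0.971 and 1.00 times for the other 6 members and about 1.20 times for the library totals. Unique reverse-strand counts per kilobase of effective length were also rescaled to a common library sum, as TPM are. In these TPM-like units Hspb8 lay above Hspb1 in every heart of both groups, with sedentary means of 408 and 297. RSEM can place reads that match several genes and the unique counts leave them out, so the level of Hspb1 is uncertain.

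**Figure D1:**
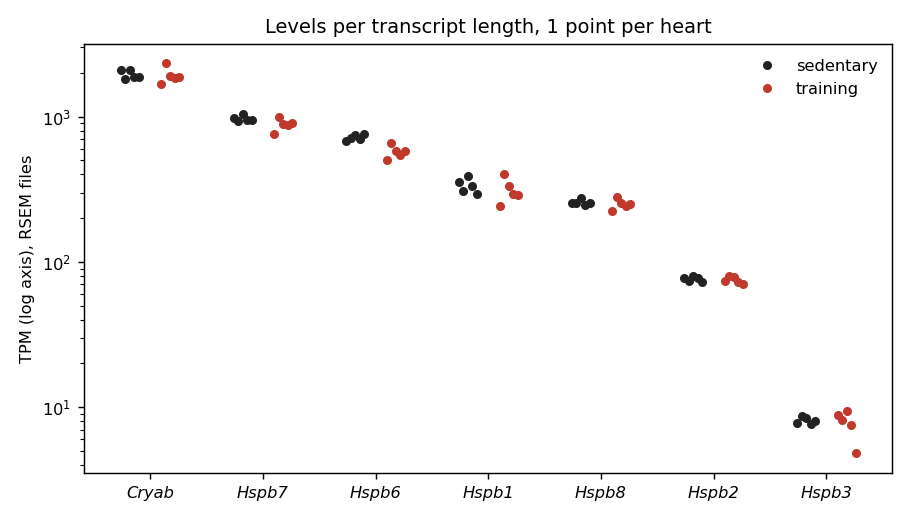
Level of each gene in TPM (log axis) in each heart, black for sedentary and red for training. Cryab is highest at about 1953 TPM and Hspb3 lowest at 8.12 TPM in sedentary hearts, and the 2 groups lie close to each other on this scale.

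In training hearts 2 of the 7 genes, Hspb6 and Hspb7, fell and none rose, at a false discovery rate below 0.1 (edgeR, quasi-likelihood F test, p-values adjusted by Benjamini-Hochberg over all 15454 genes tested). No member rose at an unadjusted p under 0.05 or by DESeq2, which called 3.99% of all genes higher. Over all genes tested, 4.26% were called lower and 2.75% higher. Scaled by library totals alone, 1029 of 1368 calls were higher in place of 425 of 1084, and the same 2 members were called lower. All 7 members passed the filter on low counts and all 7 log2 fold changes were negative (median -0.14), while over all genes 7738 lay above and 7716 below 0 with a median of 0.00026. A negative lean was not confined to the family, since 9 of 10 cardiomyocyte markers (median -0.11), 20 of 27 tested kinase and phosphatase genes (median -0.06) and 20 of 24 heat shock factor genes and targets (median -0.07) also lay below 0. Hspb6 was 25.4% lower in training hearts and Hspb7 14.2% lower.

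Hspb6 encodes a chaperone whose phosphorylation by PKA is linked to relaxation of muscle. It was at 640.0, 777, 664, 647 and 659 CPM in training hearts 1 to 5 and at 807, 918, 906, 919 and 989.9 CPM in sedentary hearts 1 to 5. Every training heart lay below every sedentary heart, a pattern that 2.94% of all genes showed in this direction. The means were 677 ± 56.4 and 908 ± 65.5 CPM (SD, n = 5 each), and the log2 fold change was -0.42 (SE 0.063, edgeR quasi-likelihood adjusted p = 0.00871). Hspb6 ranked 20 of 15454 genes by p. Leaving out each heart in turn moved its log2 fold change between -0.48 and -0.39.

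Hspb7, a cardiac and vascular member that controls thin filament assembly, was at 2019, 2473, 2150.3, 2196 and 2156 CPM in training and at 2434, 2506, 2670.2, 2593 and 2616 CPM in sedentary hearts. It had the most counts of the family, between 64988 and 100321 per heart. Training heart 2 lay within the sedentary range and the other 4 training hearts lay below it. The log2 fold change was -0.22 (SE 0.055, edgeR quasi-likelihood adjusted p = 0.0451). The call was lost without training heart 3 (adjusted p = 0.105), training heart 4 (0.102) or sedentary heart 3 (0.125), with the log2 fold change between -0.22 and -0.20 in these edgeR fits.

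Hspb8, which acts with BAG3 and HSP70 in the autophagic disposal of damaged filamin, was at 390.0, 447, 395, 393 and 388 CPM in training and at 414, 447, 459, 439 and 449 CPM in sedentary hearts. Again 4 of 5 training hearts lay below all sedentary hearts and training heart 2 did not. The log2 fold change was -0.13 (SE 0.048, edgeR quasi-likelihood adjusted p = 0.144), so Hspb8 did not pass the test. It passed with DESeq2's Wald test (adjusted p = 0.0844), which called 3 of the 7 members lower against 5.54% of all genes.

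Cryab was at 1224, 1565, 1252, 1256 and 1153 CPM in training and at 1449, 1353, 1472, 1432 and 1416 CPM in sedentary hearts. Training heart 2 was the highest of all 10 hearts, and the other 4 training hearts were the lowest. The difference did not pass the test, with a log2 fold change of -0.14 (SE 0.070, edgeR quasi-likelihood adjusted p = 0.274). Hspb1, which caps actin filaments and is phosphorylated through p38 MAP kinase, was at 109, 166, 137, 123 and 118 CPM in training and at 148, 142, 172, 157 and 133 CPM in sedentary hearts. The groups overlapped, and the log2 fold change of -0.20 (SE 0.0996, edgeR quasi-likelihood adjusted p = 0.275) did not pass.

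Hspb2 and Hspb3 form a complex of their own in muscle. Hspb2 was at 49.3, 49.6, 48.1, 46.1 and 42.4 CPM in training and at 48.5, 48.8, 51.0, 52.7 and 49.3 CPM in sedentary hearts, with a log2 fold change of -0.09 (SE 0.048, edgeR quasi-likelihood adjusted p = 0.329). Hspb3 was at 5.97, 5.24, 5.84, 4.79 and 2.92 CPM in training and between 5.02 and 5.99 CPM in sedentary hearts (edgeR quasi-likelihood log2 fold change -0.14, SE 0.15, adjusted p = 0.659). Neither passed the test, and training heart 5 was the lowest heart for both. Without that heart the log2 fold change was -0.0026 for Hspb3 and -0.05 for Hspb2. With library size as a covariate that of Hspb2 was -0.00083, and with library totals alone -0.04. Hspb3 had between 88 and 218 counts per heart, so counting error alone came to between 6.77% and 10.7% of a value, against at most 2.80% for the other members.

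**Figure D2:**
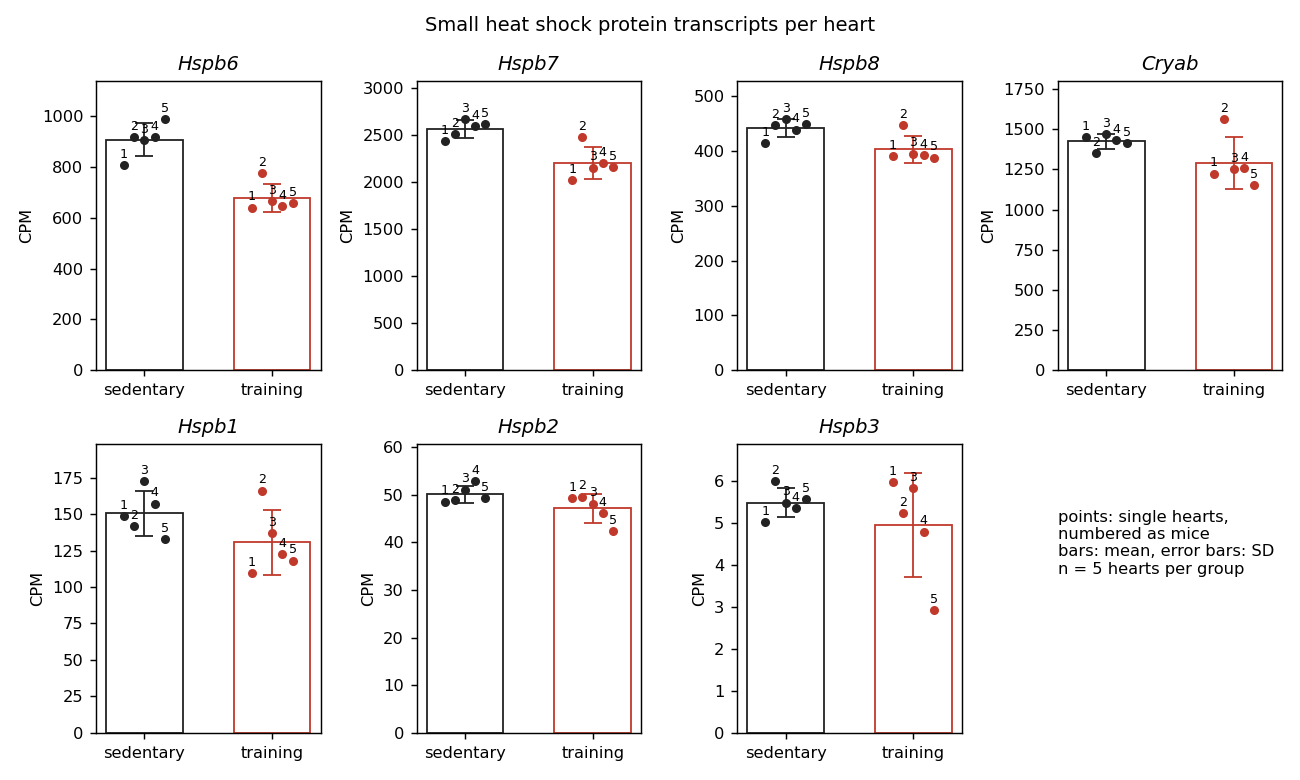
CPM of the 7 genes in each heart, with a panel per gene and axes from 0. Points are hearts with their numbers, open bars are group means and error bars are SD (n = 5 per group). The groups separate completely for Hspb6 alone, and training heart 2 is the highest training heart in 6 of the 7 panels.

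Training heart 2 stood out among the training hearts for most of the family. It was the highest training heart for 6 of the 7 genes, against 20.0% of all genes, and it lay above the mean of its group for all 7, by a median of 0.17 on the log2 scale. It stood apart from the other 4 by Dixon's criterion for Hspb6, Hspb8 and Cryab, against 0.861% of all genes. Its atrial marker score was the lowest of the training hearts, at -0.058. Leaving out a heart that was singled out for its high values in these genes lowers their training means by construction. Without training heart 2, 5 of the 7 genes were called lower and the median log2 fold change was -0.22. The share over all genes was 4.55% of 15614, but the heart was not singled out by those genes, so the 2 shares are not alike. The genes added were Hspb8 (log2 fold change -0.17), Cryab (-0.22) and Hspb1 (-0.30), with edgeR quasi-likelihood adjusted p of 0.0389, 0.0253 and 0.0516. Nothing in the labels sets this heart apart, so the values with all 10 hearts are those reported.

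**Figure D3:**
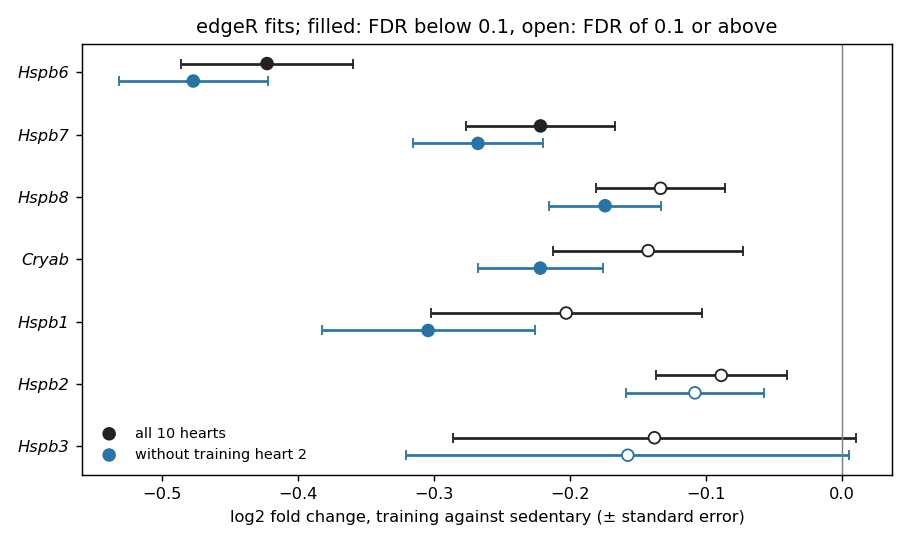
Log2 fold change of each gene in training against sedentary hearts with its standard error, with all 10 hearts (black) and without training heart 2 (blue). Filled points have a false discovery rate below 0.1. Hspb6 and Hspb7 are filled in both fits, and Hspb8, Cryab and Hspb1 only without that heart. It was singled out for its high values in these genes, so a shift to lower values without it is built in.

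**Figure D4:**
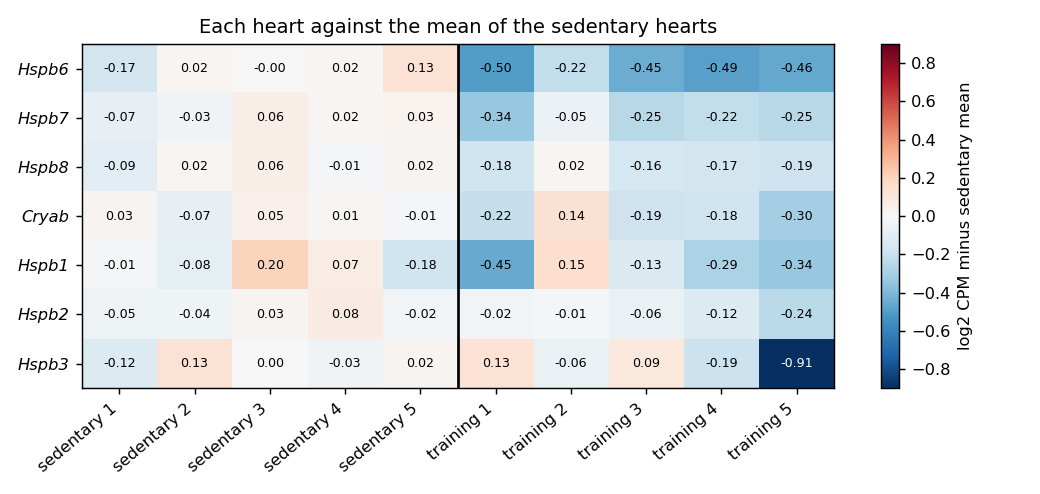
Log2 CPM of each gene in each heart minus the mean of the sedentary hearts, in blue where lower and red where higher. Training hearts 1, 3, 4 and 5 are blue for Hspb6, Hspb7, Hspb8, Cryab and Hspb1, and training heart 2 is near 0 or red for all of these but Hspb6, where it is at -0.22.

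Whether the members changed by different amounts was tested on the log2 ratio of the counts of each pair within a heart, which does not depend on library size. Of 21 pairs, 5 differed between the groups at an adjusted p below 0.1 (exact two-sided permutation test over every assignment of the hearts, Benjamini-Hochberg over the 21 pairs). Hspb6 fell relative to Hspb7 by 0.20, relative to Hspb8 by 0.29 and relative to Hspb2 by 0.33 on the log2 scale, and the groups did not overlap for any of these ratios. Each of the 3 had p = 0.0079, the smallest this design allows, and an adjusted p = 0.0417 by the exact test. Relative to Cryab, Hspb6 fell by 0.27 (exact p = 0.0159, adjusted p = 0.0667). The ratio of Hspb7 to Hspb8 fell by 0.09 (exact p = 0.0079, adjusted p = 0.0417).

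Hspb6 relative to Hspb8 was the ratio with the smallest spread among training hearts, with a mean log2 ratio of 0.75 ± 0.033 in training and 1.04 ± 0.071 in sedentary hearts (SD, n = 5). For Hspb6 against Hspb1 and Hspb3 the difference did not pass the test (adjusted p = 0.333 and 0.574 by the exact permutation test). The head-to-head pair Hspb2 and Cryab did not differ detectably in its ratio, with mean log2 ratios of -4.77 ± 0.13 in training and -4.83 ± 0.054 in sedentary hearts (exact permutation test, adjusted p = 0.619). With any 1 heart left out, between 4 and 7 pairs differed. As a share of the summed TPM of the 7 genes, Hspb6 made up 14.3% ± 0.309 in training and 16.7% ± 1.13 in sedentary hearts, and Cryab 47.8% ± 0.829 and 45.2% ± 1.24 (SD, n = 5).

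**Figure D5:**
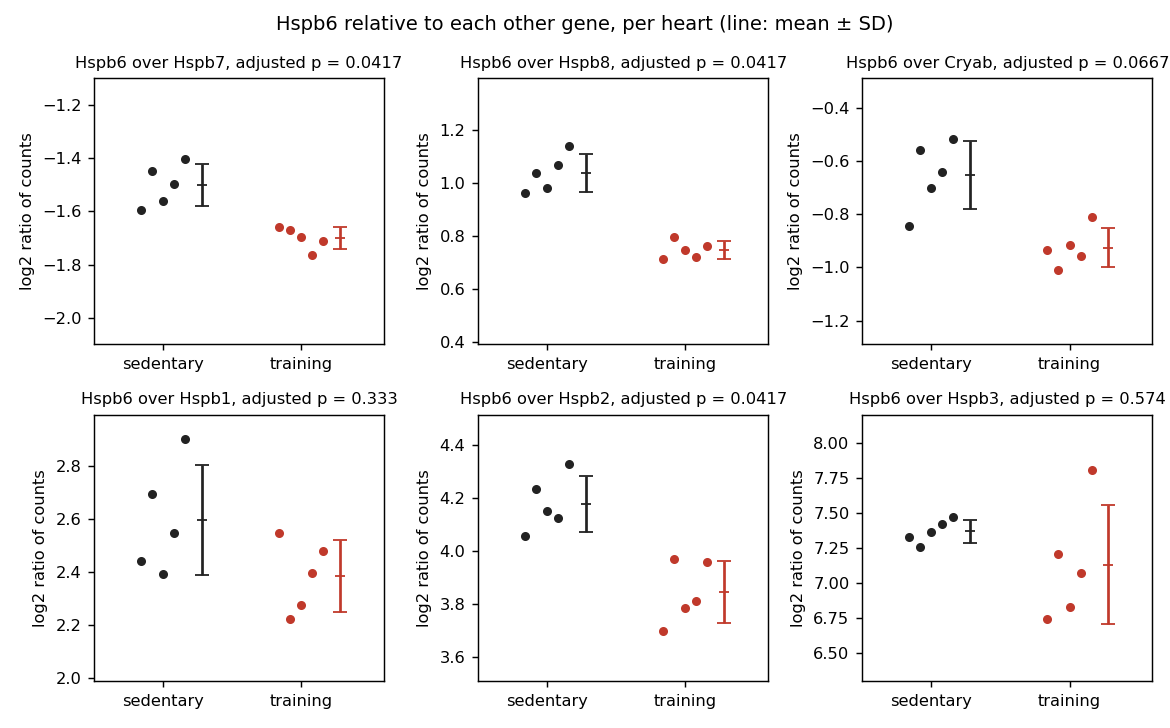
Log2 ratio of the counts of Hspb6 to each other gene in each heart, with mean and SD beside the points (n = 5 per group). All panels span the same range of log2 units except that of Hspb3, which spans more. Training hearts lie below all sedentary hearts for Hspb7, Hspb8 and Hspb2, and the groups overlap for Cryab, Hspb1 and Hspb3.

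Within the groups, how closely the members moved together from heart to heart depended largely on training heart 2. After removal of each group's mean, the Pearson correlation of log2 CPM over the 10 hearts had a median of 0.59 over the 21 pairs of members, and between Hspb6 and Hspb8 it was 0.90. Without training heart 2 the median was 0.26, and Hspb6 and Hspb8 still stood at 0.77 while Hspb6 and Cryab went from 0.60 to -0.25. Hspb2 and Hspb3 stood at 0.80 with all hearts and at 0.81 without that heart. Training heart 5 was the lowest of all hearts for both, at -0.24 for Hspb2 and -0.91 for Hspb3 on the log2 scale against the sedentary mean. The correlation of this pair without training heart 5 was not computed. These correlations are descriptions over points that share their libraries and their TMM factors, and those of pairs of other genes were not computed for comparison.

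Among 8392 protein-coding genes that averaged 10 CPM or more, those most like each member from heart to heart were listed in the same way. Picking the 3 highest of so many genes over 10 hearts gives high r by itself. The r to be had from unrelated genes was not computed, so no link between the genes is read from this list. For Hspb6 they were Opa3, a mitochondrial protein (r = 0.98), Hsf1, the heat shock factor (0.97), and Pdlim1, a PDZ and LIM domain protein (0.94). For Hspb7 they were Inpp5a (0.97), Zc3h4 (0.95) and Slc12a4 (0.95), and for Hspb8 Ap1b1 (0.95), Mrpl38 (0.93) and Psmd3 (0.93). Cryab was most like Pf4 (0.93), Rpsa (0.91) and Lmna (0.91), and Hspb1 most like Nup54 (0.96), Arih1 (0.93) and Lmna (0.93). Hspb2 was closest to Polr3d (0.96), Taf10 (0.95) and Pex3 (0.94), and Hspb3 to Gng5 (0.98), the ribosomal protein gene Rpl19 (0.97) and the cytochrome c oxidase gene Cox8a (0.96). Several of these matches were weaker without training heart 2. The r with Cryab was then 0.64 for Lmna, 0.68 for Rpsa and 0.81 for Pf4, and that of Psmd3 with Hspb8 was 0.78, while Hsf1 and Hspb6 stood at 0.97. Of these genes Pdlim1, Inpp5a and Ap1b1 were called lower in training (edgeR quasi-likelihood log2 fold changes of -0.18, -0.17 and -0.19, adjusted p = 0.0877, 0.0598 and 0.0441). Hsf1 itself was at 38.4 ± 1.93 CPM in training and 41.3 ± 2.48 CPM in sedentary hearts and did not pass (log2 fold change -0.11, edgeR quasi-likelihood adjusted p = 0.254).

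Partners and clients of the family were read from a list of 24 genes, of which 23 were tested. In training hearts 2 of them rose and 2 fell, where 2.75% of all genes tested rose and 4.26% fell. In the list 6 lay above and 17 below 0, with a median log2 fold change of -0.04. Synpo2, a Z-disc protein of the BAG3 autophagy pathway, was at 164 ± 11.4 CPM in training and 196 ± 15.8 CPM in sedentary hearts, without overlap (log2 fold change -0.26, edgeR quasi-likelihood adjusted p = 0.0376). The cardiac actin Actc1 fell by 0.38 on the log2 scale, and the intermediate filament gene Vim, which is strong in fibroblasts and endothelium, rose by 0.29 (edgeR quasi-likelihood adjusted p = 0.0220 and 0.0272). Hspa1a, an inducible HSP70, was at 3.70 ± 1.61 against 2.10 ± 0.542 CPM (log2 fold change 0.82, edgeR quasi-likelihood adjusted p = 0.0968). Its near-identical copy Hspa1b did not pass (0.30, adjusted p = 0.451, edgeR). Reads that match both copies are left out of the unique counts, so the value of Hspa1a is uncertain.

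Bag3, the cochaperone that binds Hspb8 and Hspb6, was at 255 ± 13.5 CPM in training and 284 ± 27.2 CPM in sedentary hearts (log2 fold change -0.16, edgeR quasi-likelihood adjusted p = 0.187). Des, the desmin gene, stood at 1906 ± 153 and 2063 ± 29.3 CPM (-0.11, edgeR adjusted p = 0.251), and Flnc, the filamin C gene, at 626 ± 145 and 652 ± 48.7 CPM (-0.06, edgeR adjusted p = 0.847). None of these 3 passed the test. Without training heart 2, Des and Actn2 were also called lower, and 6 partners were called in all, against 1252 of 15614 genes. Without sedentary heart 1 the count was also 6, against 1490 of 15561 genes, with Bag3, Actn2 and Ywhag called lower. Bag3 was called lower with the mouse number as a block too. The call of Hspa1a was lost when training heart 3, 4 or 5 or sedentary heart 1, 2, 3 or 4 was left out.

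The kinases, phosphatases and anchoring proteins that act on these chaperones made up a list of 28 genes, 27 of them tested, of which 2 fell and none rose in edgeR. DESeq2 also called no gene of this list higher, and 1 was higher at an unadjusted p under 0.05. Scaled by library totals alone, edgeR called 2 of them higher (Akap6 and Ppp1ca) and 1 lower (Akap1). Over all genes tested, edgeR called 4.26% lower and 2.75% higher. Without sedentary heart 1, 5 genes of the list were called, all lower, where 835 of all 15561 genes tested were called lower. Akap1, which anchors PKA at mitochondria, was at 177 ± 8.39 CPM in training and 215 ± 7.22 CPM in sedentary hearts, without overlap (log2 fold change -0.28, edgeR quasi-likelihood adjusted p = 0.00871). Prkd2, a protein kinase D, was at 16.6 ± 0.184 and 19.2 ± 2.00 CPM (-0.21, edgeR quasi-likelihood adjusted p = 0.0958). With a heart left out, Prkd2 kept its call only without sedentary heart 1 or 3. In the list of 25 heat shock factors and their classic targets, 24 were tested, of which Hspa1a rose and none fell in edgeR, with 4 above and 20 below 0. DESeq2 called 1 of them lower, Stip1, and 3 were lower at an unadjusted p under 0.05 in edgeR. Without training heart 2 the targets Hspd1, Hsph1 and Stip1 were called lower, where 710 of all 15614 genes tested were.

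Marker scores and library size were each added to the fit as a covariate. With the atrial marker score of each heart as a covariate (0.22 ± 0.20 in training and -0.22 ± 0.39 in sedentary hearts, exact permutation p = 0.0556), Hspb6 kept its call with a log2 fold change of -0.32 (edgeR quasi-likelihood adjusted p = 0.0869) and Hspb7 did not (-0.18, adjusted p = 0.327). With library size as a covariate Hspb6 was at -0.43 (edgeR quasi-likelihood adjusted p = 0.0603) and Hspb7 at -0.23 (adjusted p = 0.206). The smooth muscle and pericyte score (0.062 ± 0.13 in training and -0.062 ± 0.12 in sedentary hearts, exact permutation p = 0.143) gave -0.42 for Hspb6 and -0.23 for Hspb7 (edgeR quasi-likelihood adjusted p = 0.0416 and 0.115). Fibroblast markers, 9 of 10 above 0 and 3 called higher, and cardiomyocyte markers, 9 of 10 below 0 and 2 called lower, moved as well, and their part in the results was not tested.

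Besides the level of Hspb1, the change of Hspb2 depended on how the reads were counted. Hspb2 and Cryab overlap on opposite strands, and the counts of both strands held between 0.389 and 0.498 of the reverse-strand counts of Hspb2, since reads in an overlap then count for neither gene. Its log2 fold change was -0.24 in those counts and -0.09 in the reverse-strand counts, and it passed in neither. Hspb6 overlaps Proser3 and Lin37 on the opposite strand, and its log2 fold change was -0.42 by either counting. RSEM expected counts gave -0.42 for Hspb6 and -0.22 for Hspb7. On the deposited TPM scale, where the median log2 ratio of all genes was 0.07, the log2 ratio of the mean levels was -0.33 for Hspb6, -0.13 for Hspb7 and -0.02 for Cryab.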

How the data were processed

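Poly-A RNA of 10 whole mouse hearts was sequenced by the authors as directional single reads of 100 bases. The deposited counts are raw whole numbers of reads with 1 mapping place, tallied for each gene by the authors with STAR 2.7.10a on GRCm39, and the column of the reverse strand was used. The deposited RSEM 1.3.3 files hold expected counts, which were rounded for an alternative fit, and the authors' TPM, which scale each gene by its effective length, also given there. The authors' FPKM in the same files were not used. The strand setting of RSEM is not given in the sources used here. Of 56748 gene identifiers, 56017 were matched to GENCODE M39, from which symbols, positions and upstream windows came. Lines that name no gene were left out; of a table, 17.9% to 19.2% were multimapping reads and 4.15% to 4.89% fell outside genes. Reverse-strand counts per library ranged from 29461697 to 39431030, so that a count of 3 was between 0.0761 and 0.102 CPM. Counting errors and these floors cover counting only. Pairs of libraries within a group exceeded counting noise (chi-square per degree of freedom of 6.34 to 29.8), so all 10 were counted as separate hearts.

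Groups were taken from the treatment label. Training was compared with sedentary hearts by edgeR 4.0.16 under R 4.3.3 (genes kept by filterByExpr, TMM, quasi-likelihood F test, Benjamini-Hochberg adjustment over 15454 genes, threshold 0.1), where the study's own methods used DESeq2. DESeq2 1.42.0 was an alternative. Log2 CPM used a prior count of 2 and ratios an offset of 0.5 counts. Ratios and scores were compared by exact permutation over every assignment of 5 against 5 hearts in scipy 1.17.1. All 7 members were named, as were genes of the 3 lists past the threshold, Bag3, Des, Flnc and Hsf1, and the 3 genes most like each member. The members and lists were chosen with earlier results of these data known. The steps were tested on simulated data. Alternatives were other normalizations, filters and counts, no mitochondrial DNA genes, the mouse number as a block, covariates, a threshold of 0.05 and each heart left out. Same-numbered hearts had correlations between -0.097 and 0.16, so the numbers were not treated as pairs.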

Additional observations from a re-analysis of the deposited data

Results flagged for a closer look

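Training heart 2 lay far above the other 4 training hearts for 3 genes, by a gap to the nearest heart of over 0.71 of the range of its group. It was at 777 CPM for Hspb6, at 447 CPM for Hspb8 and at 1565 CPM for Cryab. Chance sets apart a heart in about 1 in 20 groups, and this heart was the highest training heart and set apart in this way for 0.861% of all genes. It also lay above the mean of its group for all 7 genes.

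On the strand opposite to the transcript, which the main comparison of Cryab did not use, Cryab had 29.1 ± 2.08 CPM, by library total, in training and 26.5 ± 1.46 in sedentary hearts (SD, n = 5 each, exact permutation p = 0.0476). After adjustment over the 7 genes the exact test gave p = 0.333. These counts came to between 1.73% and 2.58% of the counts of Cryab on either strand. Hspb2 lies within Cryab on that strand, so reads of its transcripts in the overlap count here and also in the comparison of Hspb2. In sedentary heart 1 Cryab had 1029 opposite-strand counts, while Hspb2 had 1953 reverse-strand counts and 952 in the counts of both strands. The share that Hspb2 gave was not tested.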

How the results depend on the processing

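Hspb6 kept its direction and its call under every alternative run. Among the 7 genes, 1 was called lower in place of 2 with the atrial score, the smooth muscle and pericyte score or library size as a covariate, and between 1 and 5 with each heart left out (5 without training heart 2, and 1 where training heart 3 or 4 or sedentary heart 3 was dropped). The median log2 fold change ranged from -0.22 (without training heart 2) to -0.12 with a heart left out, and stood at -0.09 with library totals alone and -0.20 with counts of both strands. Under the same 3 covariates 1 partner gene was called in place of 4 (3 to 6 with a heart left out), 1 kinase or phosphatase gene in place of 2 (1 to 5), 0 heat shock factor genes and targets in place of 1 (0 to 4), and 108, 312 and 324 genes in all in place of 1084 (512 to 1490). An FDR below 0.05 gave 505 genes in all, 1 kinase gene and 0 heat shock factor genes. The kinase list also gave 1 with DESeq2 size factors, RSEM expected counts, no mitochondrial DNA genes or the replicate block, and the heat shock factor list 2 with DESeq2, 0 with RSEM expected counts and 0 with counts of both strands. The covariates and single hearts remove residual degrees of freedom by construction, and otherwise the cause was not tested. The log2 fold change of Hspb3 turned to 0.18 with library size as a covariate (edgeR adjusted p = 0.652). Cryab made up 47.0% in place of 45.2% of the family in sedentary hearts with counts per effective kilobase. Pairs of members that differed numbered 5, and 4 to 7 with a heart left out.

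With the mouse number as a replicate block, 2 of the 7 genes and 1137 genes in all were called. Same-numbered hearts correlated between -0.097 and 0.16, and 3 of 10 hearts correlated best with their own number, so the numbers were not read as pairing. Hspb3, with as few as 88 counts, is the member that depth limits most.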
